A study of Bos taurus with 48 samples.

Results

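LIF, IL1A and TNFRSF11A are 3 genes of inflammatory cytokine signalling, and their counts were examined in the circulating leukocytes of beef calves by treatment and day. They were chosen by name, through the Ensembl identifiers ENSBTAG00000007424 (LIF), ENSBTAG00000010349 (IL1A) and ENSBTAG00000007569 (TNFRSF11A), and are 3 of the 25669 genes in the count table. The study itself had listed the 3 genes as changed on these same counts, so that small p values for them are not independent evidence. It asked how leukocytes respond when calves are housed, with and without weaning at the same time. Both treatments were moved indoors on d 0, the weaned calves losing their dam at once and joining other calves in the same state, the control calves keeping theirs. Blood was taken from each calf on d 0, before housing, and on d 1, 2 and 7, and RNA of total leukocytes was sequenced after lysis of the red cells. This gave 48 libraries from 12 calves, with 6 weaned and 6 control calves on each day and 1 library per calf and day.

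The animals were uncastrated males born in spring that had been reared by their own dam at pasture, and all had been vaccinated against respiratory viruses before the trial. The breed is labelled Continental and is Simmental in the study's methods. Control calves were not untreated, since they too were housed, each pen holding more than 1 cow and calf, and d 0 is the only time before housing among the libraries. The libraries held 1662995 to 4256011 counts (median 3600161). Levels are given in CPM, which are counts relative to the library total scaled by its TMM factor, and a floor of 3 counts, under which presence is not claimed, corresponded to 0.686 to 2.08 CPM. The floor and all intervals of counts cover counting error only.

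LIF is a secreted cytokine of the interleukin-6 family, which signals through its receptor LIFR and the shared chain gp130 to JAK kinases and STAT3. IL1A encodes interleukin-1 alpha, which is held in cells and released by damaged or activated cells, and which acts through the interleukin-1 receptor, MYD88 and the kinase TAK1 on NF-kappaB. TNFRSF11A encodes RANK, the receptor for RANK ligand on osteoclast precursors and dendritic cells, which signals through TRAF6 to NF-kappaB and to FOS and NFATC1.

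Before the results, the identity of the d 7 libraries was examined, because 2 of them went against their labels. Over the 100 genes that best separated the calves on d 0, 1 and 2, the d 7 libraries of 10 of the 12 calves correlated best with the earlier libraries of the same calf (Pearson r of 0.681 to 0.907). The d 7 library labelled 1758 correlated with weaned calf 1770 (r = 0.788) more than with calf 1758 (r = 0.415), and the one labelled 1770 correlated with calf 1758 (r = 0.663) more than with calf 1770 (r = 0.216). Genes from the same libraries are not independent replicates, so these values are a description. Over all genes with at least 480 counts, as deviations from the group means, the result depended on the day compared. With d 0, 1 and 2, the d 7 library labelled 1758 had r of -0.443, -0.0837 and 0.901 for its own calf and -0.438, -0.140 and -0.524 for calf 1770. On d 0 it was most like weaned calf 1762 (r = 0.609). The d 2 library of calf 1758 was also most like calf 1762 on d 0 (r = 0.613, against -0.349 for its own calf). The d 7 library labelled 1770 had 0.172, 0.163 and 0.223 for its own calf and 0.181, 0.270 and -0.153 for calf 1758, so that the labels could not be settled. An exchange of the 2 libraries would leave the comparisons of whole groups as they are, and the tests of the 3 genes that use them are given below with and without both calves. Levels, list genes, markers and correlations are given with both as labelled.

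LIF was counted in every library, with 7 to 125 counts and a median of 35. In weaned calves on d 0, the lowest, median and highest values were 6.86, 10.7 and 18.7 CPM, and the mean was 11.6 ± 4.08 CPM (SD, n = 6). The control calves on that day had 3.56, 5.22 and 10.8 CPM, with a mean of 6.02 ± 2.67 CPM (SD, n = 6). All 6 weaned calves lay above the control median and 3 of them above every control calf, before any calf had been housed or weaned. On d 1 the weaned calves had 6.68, 12 and 16.2 CPM (mean 11.4 ± 3.29, SD, n = 6), and the control calves had 2.57, 6.05 and 9.80 CPM (mean 6.11 ± 2.79, SD, n = 6). On d 2 the values were 7.56, 13.2 and 24 CPM in weaned calves (mean 13.9 ± 5.50, SD, n = 6) and 1.96, 8.50 and 13 CPM in control calves (mean 7.82 ± 4.19, SD, n = 6). Calf 1770 was the highest and calf 1769 the lowest of the weaned calves on d 0, 1 and 2, so that differences between animals persisted, and the ranges of the treatments overlapped on each of these days.

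On d 7 the ranges of LIF in the treatments overlapped as well. Weaned calves had 6.98, 15.5 and 33.5 CPM (mean 16.8 ± 8.89, SD, n = 6), and control calves had 5.14, 16.3 and 22.2 CPM (mean 14.6 ± 6.81, SD, n = 6). The highest value came from the library labelled 1758, and only 2 of 6 weaned calves lay above the control median. By group mean, the order was weaned d 7, control d 7, weaned d 2, weaned d 0, weaned d 1, control d 2, control d 1 and control d 0. No group in this order differed from its neighbour by more than the larger of their SD. Averaged over the 4 days, single calves spanned 9.11 to 18.6 CPM among the weaned and 3.75 to 11.5 CPM among the control calves.

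**Figure D1:**
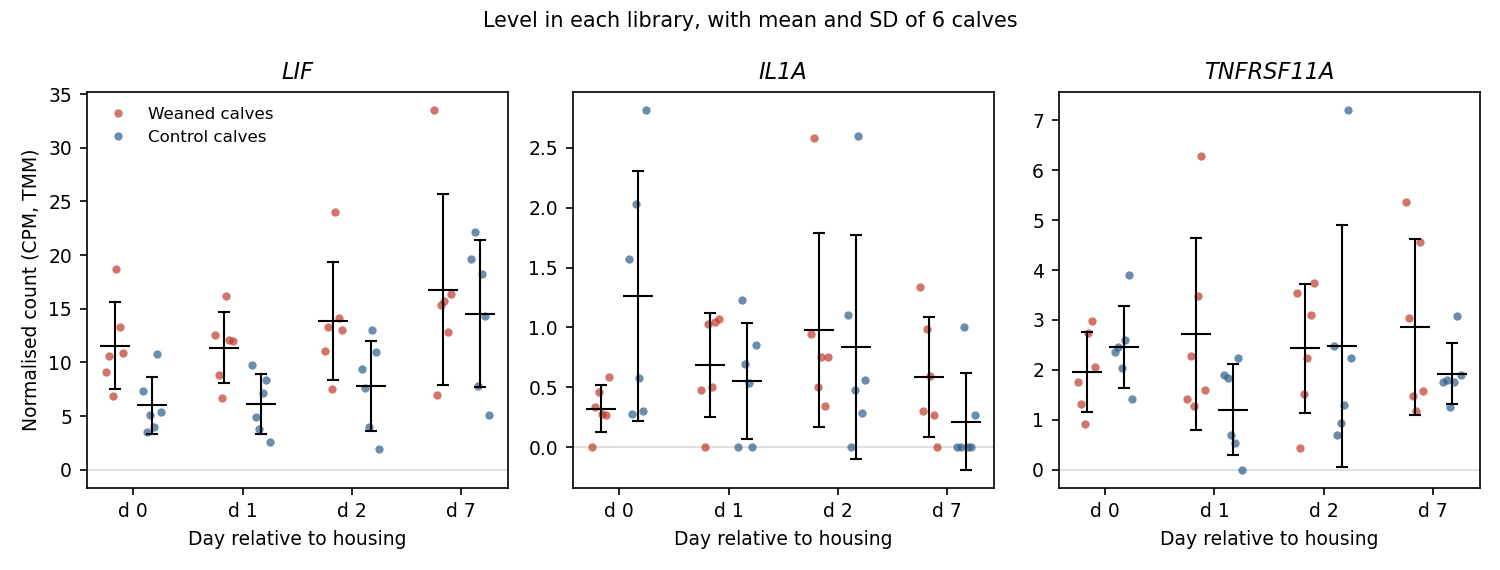
Normalised counts of LIF, IL1A and TNFRSF11A (CPM, vertical axes on separate scales) by day relative to housing (horizontal axis) in weaned and control calves. Each point is 1 library, the horizontal dash is the mean of 6 calves and the bar its SD, and on d 7 LIF reached a mean of 14.6 CPM in control calves against 6.02 CPM on d 0.

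The clearest change in LIF was in the control calves, which were not weaned. From d 0 to d 7, LIF went from 7.32 to 19.7 CPM in calf 1755, from 3.56 to 22.2 CPM in calf 1759 and from 4.03 to 18.2 CPM in calf 1789. It went from 10.8 to 14.4 CPM in calf 1802, from 5.08 to 7.80 CPM in calf 1763 and from 5.35 to 5.14 CPM in calf 1803. LIF was thus higher in 5 of 6 control calves, 4 of which exceeded every d 0 value. The cytokine was up-regulated with a log2 change of 1.26 (SE 0.35), at an adjusted p of 0.0300 in edgeR's quasi-likelihood test, and the exact permutation of signs within calves gave p = 0.0625 over 64 arrangements, of which 0.03125 is the smallest possible. The call was kept in edgeR with calf as a block (log2 1.22, adjusted p = 0.00804) and by DESeq2 (log2 1.27, adjusted p = 0.00720). It was lost with flowcell as a block (log2 1.21, adjusted p = 0.102). It was also lost without calf 1755 (log2 1.19, adjusted p = 0.142), 1759 (1.01, 0.117), 1763 (1.32, 0.0765) or 1789 (1.10, 0.0689). The 4 control calves whose d 0 and d 7 libraries were on different flowcells had a mean change of 1.53 on the log2(CPM + 1) scale (0.53 to 2.35), and the 2 calves with both on 1 flowcell had 0.17 (-0.05 to 0.38). In weaned calves the changes by d 7 were -0.04 and 0.55 in the 2 calves on different flowcells, and -0.54 and 1.05 in calves 1762 and 1769 on 1 flowcell, besides 1.77 and -0.23 in those labelled 1758 and 1770, so that the ranges overlapped. With so few calves on each side, the part of the flowcell was not tested by this split.

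In weaned calves, LIF was higher on d 2 than on d 0 in 6 of 6 animals, by a small amount. The log2 change was 0.25 (SE 0.30, adjusted p = 0.944), and the exact permutation of signs gave p = 0.03125, the smallest it allows. On d 1 the log2 change was -0.04 (SE 0.27), and on d 7 it was 0.53 (SE 0.33, adjusted p = 0.920) with 3 of 6 calves higher. Without calves 1758 and 1770 the d 7 change was 0.31, and with both exchanged 4 of 6 calves were higher (exact permutation p = 0.156, against 0.344 as labelled). In control calves the log2 change was 0.02 (SE 0.36) on d 1 and 0.38 (SE 0.40) on d 2. Neither treatment therefore had a change in LIF that passed the call on d 1 or d 2.

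Between the treatments, LIF was nominally higher in weaned calves from the start. The log2 difference was 0.94 (SE 0.30, unadjusted p = 0.00680 and adjusted p = 0.624 in edgeR) on d 0, 0.87 (SE 0.33, adjusted p = 0.959) on d 1 and 0.82 (SE 0.39, adjusted p = 0.95) on d 2. Exact permutation of the calf labels gave p = 0.0173 on d 0, 0.0216 on d 1 and 0.0498 on d 2, where 0.0021645 is the smallest possible. These are the same animals on each day and share their d 0 difference, and the change from d 0 did not differ detectably between the treatments, with an interaction of -0.03 (SE 0.30) on d 1 and -0.03 (SE 0.38) on d 2. On d 7 the log2 difference was 0.23 (SE 0.37, adjusted p = 0.686), or -0.16 without calves 1758 and 1770. The d 7 interaction was -0.74 (SE 0.47, adjusted p = 0.255, exact permutation p = 0.240), so that the larger change in control calves was not shown to differ from that in weaned calves. It was -0.90 (adjusted p = 0.392) without calves 1758 and 1770 and -0.73 (adjusted p = 0.217) with both exchanged.

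IL1A was near the limit of detection. The 48 libraries held 116 counts in all, with 0 to 10 per library and a median of 2; 10 libraries had 0 counts and 34 had 3 or fewer. In control calves on d 0 the lowest, median and highest values were 0.274, 1.07 and 2.82 CPM, with a mean of 1.26 ± 1.05 CPM (SD, n = 6) from 26 counts. In weaned calves on d 0 they were 0, 0.303 and 0.587 CPM, with a mean of 0.320 ± 0.198 CPM (SD, n = 6) from 7 counts, and every library was at or under the floor. The highest d 0 values were those of control calves 1803, 1763 (2.03 CPM) and 1755 (1.57 CPM), while the other 3 control calves lay within the range of the weaned calves. On d 1 the values were 0, 0.763 and 1.07 CPM in weaned calves (mean 0.686 ± 0.434, SD, n = 6) and 0, 0.615 and 1.23 CPM in control calves (mean 0.552 ± 0.485, SD, n = 6). On d 2 they were 0.345, 0.749 and 2.58 CPM in weaned calves (mean 0.979 ± 0.813, SD, n = 6) and 0, 0.516 and 2.60 CPM in control calves (mean 0.837 ± 0.936, SD, n = 6). The ranges overlapped fully on both days, with 1 high library in each treatment on d 2, from weaned calf 1762 and control calf 1789.

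On d 7, IL1A in weaned calves was 0, 0.448 and 1.34 CPM (mean 0.582 ± 0.501, SD, n = 6, from 13 counts). In control calves it was 0, 0 and 1.01 CPM (mean 0.213 ± 0.403, SD, n = 6), since 4 of 6 libraries had 0 counts and calf 1763 held 4 of the 5 counts. The order by group mean was control d 0, weaned d 2, control d 2, weaned d 1, weaned d 7, control d 1, weaned d 0 and control d 7, and no neighbours differed by more than the larger SD. Control calves thus held both the highest mean, before housing, and the lowest mean, a week after it.

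IL1A was lower on d 7 than on d 0 in 6 of 6 control calves. The normalised count on d 7 was 0.223 times that on d 0 (95% interval 0.0667 to 0.589 for counting error), a log2 change of -2.04 (SE 0.95) with an unadjusted p of 0.0205 and an adjusted p of 0.0765 in edgeR. The exact permutation of signs gave p = 0.03125, the smallest it allows. In calves 1759 and 1802 the sign rested on 1 count against 0, and in calf 1789 on 2 counts against 0, all under the floor. With calf as a block the gene was called down-regulated (log2 -2.32, SE 0.89, adjusted p = 0.0269), as it was by the exact test with a common dispersion (log2 -2.01). It was not called with flowcell as a block (log2 -3.48, adjusted p = 0.0837). The fits with 1 calf left out had no calf block, like the main fit, and did not call it either (log2 -3.40 without calf 1763 to -1.63 without calf 1803, adjusted p of 0.0765 to 0.237). Whether the call with calf as a block or by the exact test holds without single calves was not tested. The call thus depends on the test, and the size on single animals. In weaned calves IL1A was higher on d 2 than on d 0 in 6 of 6 animals, at 2.73 times the d 0 count (95% interval 1.10 to 7.67). The log2 change was 1.41 (SE 0.67, adjusted p = 0.944, exact permutation p = 0.03125), measured against a d 0 group at the floor. Calf 1769 had 2 counts and calf 1773 had 1 count on both days, so that their signs came from the library totals alone. The number of calves higher and its exact p therefore rest partly on equal counts under the floor. The remaining log2 changes from d 0 were 0.99 (SE 0.70) on d 1 and 0.81 (SE 0.75) on d 7 in weaned calves, and -1.14 (SE 0.77) on d 1 and -0.42 (SE 0.69) on d 2 in control calves. The ratios of counts were 2.12 (95% interval 0.825 to 6.09), 1.87 (0.694 to 5.54), 0.436 (0.194 to 0.913) and 0.752 (0.394 to 1.41) in the same order. None of these 4 passed the call, and the weaned d 7 value was -0.01 without calves 1758 and 1770.

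Before housing, the difference between the treatments in IL1A had the sign opposite to LIF, with overlapping ranges. On d 0 the count in weaned calves was 0.260 times that in control calves (95% interval 0.0953 to 0.615), a log2 difference of -1.83 (SE 0.74, unadjusted p = 0.0137 and adjusted p = 0.624 in edgeR, exact permutation p = 0.0628). It was 0.30 (SE 0.76) on d 1, 0.01 (SE 0.67) on d 2 and 1.07 (SE 0.99, adjusted p = 0.415) on d 7, the last being 0.54 without calves 1758 and 1770 and 0.66 to 2.55 with 1 calf left out, the highest without control calf 1763. The interactions, which subtract this d 0 difference, were 2.16 (SE 1.05, unadjusted p = 0.0387 and adjusted p = 0.211 in edgeR, exact permutation p = 0.0563) on d 1 and 1.95 (SE 1.00, adjusted p = 0.505, exact permutation p = 0.0801) on d 2. On d 7 the interaction reached 3.12 (SE 1.23, unadjusted p = 0.0101 and adjusted p = 0.0833 in edgeR, exact permutation p = 0.0108). That exact p was 0.0667 without calves 1758 and 1770, where 0.0047619 is the smallest possible over 210 splits, and 0.0108 with both exchanged.

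TNFRSF11A, the receptor among the 3 genes, was low but above the floor in 42 of 48 libraries, with 0 to 25 counts and a median of 6.5. In weaned calves the lowest, median and highest values on d 0 were 0.915, 1.91 and 2.99 CPM (mean 1.97 ± 0.802, SD, n = 6), and in control calves 1.41, 2.41 and 3.89 CPM (mean 2.46 ± 0.820, SD, n = 6). On d 1 they were 1.29, 1.94 and 6.29 CPM in weaned calves (mean 2.73 ± 1.92, SD, n = 6) and 0, 1.27 and 2.25 CPM in control calves (mean 1.20 ± 0.909, SD, n = 6). On d 1 all 6 weaned calves lay above the control median and 3 above every control calf, with calf 1773 the highest and control calf 1803 at 0 counts. On d 2 the values were 0.430, 2.68 and 3.75 CPM in weaned calves (mean 2.43 ± 1.29, SD, n = 6) and 0.693, 1.77 and 7.20 CPM in control calves (mean 2.48 ± 2.42, SD, n = 6). On d 7 they were 1.19, 2.30 and 5.36 CPM in weaned calves (mean 2.87 ± 1.76, SD, n = 6) and 1.26, 1.78 and 3.08 CPM in control calves (mean 1.92 ± 0.608, SD, n = 6). Control calf 1802 was the highest control calf on all 4 days, and the ranges overlapped throughout.

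The group means of TNFRSF11A fell in the order weaned d 7, weaned d 1, control d 2, control d 0, weaned d 2, weaned d 0, control d 7 and control d 1, with no neighbours apart by more than the larger SD. The lowest group was thus the control calves 1 day after housing. There the receptor was lower than on d 0 in 6 of 6 animals, at 0.485 times the d 0 count (95% interval 0.285 to 0.802), with a log2 value of -1.02 (SE 0.54, adjusted p = 0.999 in edgeR, exact permutation p = 0.03125), or -1.22 to -0.85 with 1 calf left out. In weaned calves the d 1 change was 0.44 (SE 0.44) with 4 of 6 higher. The interaction on d 1 was 1.47 (SE 0.53, unadjusted p = 0.0101 and adjusted p = 0.2 in edgeR, exact permutation p = 0.00433). The study had listed TNFRSF11A as changed on d 1 on these same counts, so that these p values are not an independent test. Between the treatments the log2 difference on d 1 was 1.14 (SE 0.61, adjusted p = 0.959, exact permutation p = 0.0779), a ratio of counts of 2.28 (95% interval 1.41 to 3.82). Several cell markers had interactions of the same sign on d 1, among them FLT3 (1.32, SE 0.35) and FCER1A (1.03, SE 0.42) of dendritic cells, IL5RA (1.23, SE 0.32) of eosinophils and KDR (1.55, SE 0.44) of endothelium, while ALPL and PGLYRP1, 2 of 10 neutrophil markers, had 0.13 (SE 0.35) and -0.79 (SE 0.32), none of them called. PPBP of platelets (1.44, SE 0.71) and KLRD1 of NK cells (0.98, SE 0.48) had the sign of TNFRSF11A too. So did CLEC7A of monocytes (0.91, SE 0.53) and MS4A2 of eosinophils and basophils (0.75, SE 0.37). The sign was opposite for COL1A1 (-1.17, SE 1.28) and the other fibroblast markers, and for ALAS2 (-0.48, SE 0.87) and HBB (-0.0029, SE 0.43). None of these was called either. The sum of the 2 dendritic cell markers, 23.6 ± 6.87 CPM in weaned and 24.2 ± 7.94 CPM in control calves on d 0, was 36.9 ± 8.18 and 18.6 ± 8.59 CPM on d 1 (SD, n = 6). On d 2 it was 32.4 ± 8.50 and 15.7 ± 5.20 CPM (SD, n = 6), with interactions of 1.32 (FLT3) and 1.06 (FCER1A), where TNFRSF11A had 0.42. The sum was mostly FCER1A, which is also found on basophils, so it is not particular to dendritic cells. RANK is found on dendritic cells, and the part of cell numbers in the TNFRSF11A values was not tested, since counts of blood cells were not used here.

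On the other days no value of TNFRSF11A passed the call. The log2 difference of weaned from control calves was -0.31 (SE 0.36) on d 0, -0.04 (SE 0.55) on d 2 and 0.58 (SE 0.44) on d 7. The changes from d 0 were 0.33 (SE 0.44) on d 2 and 0.54 (SE 0.44) on d 7 in weaned calves, and 0.07 (SE 0.49) on d 2 and -0.33 (SE 0.37) on d 7 in control calves. The interaction was 0.42 (SE 0.53) on d 2 and 0.79 (SE 0.52, adjusted p = 0.266, exact permutation p = 0.113) on d 7. Without calves 1758 and 1770 the d 7 values were 0.46 between the treatments, 0.55 from d 0 in weaned calves and 0.86 for the interaction (exact permutation p = 0.0143), and with both exchanged the exact permutation p of the interaction was 0.0281. In a mixed leukocyte sample, for all 3 genes, fewer cells that express the gene and less RNA per cell cannot be told apart.

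**Figure D2:**
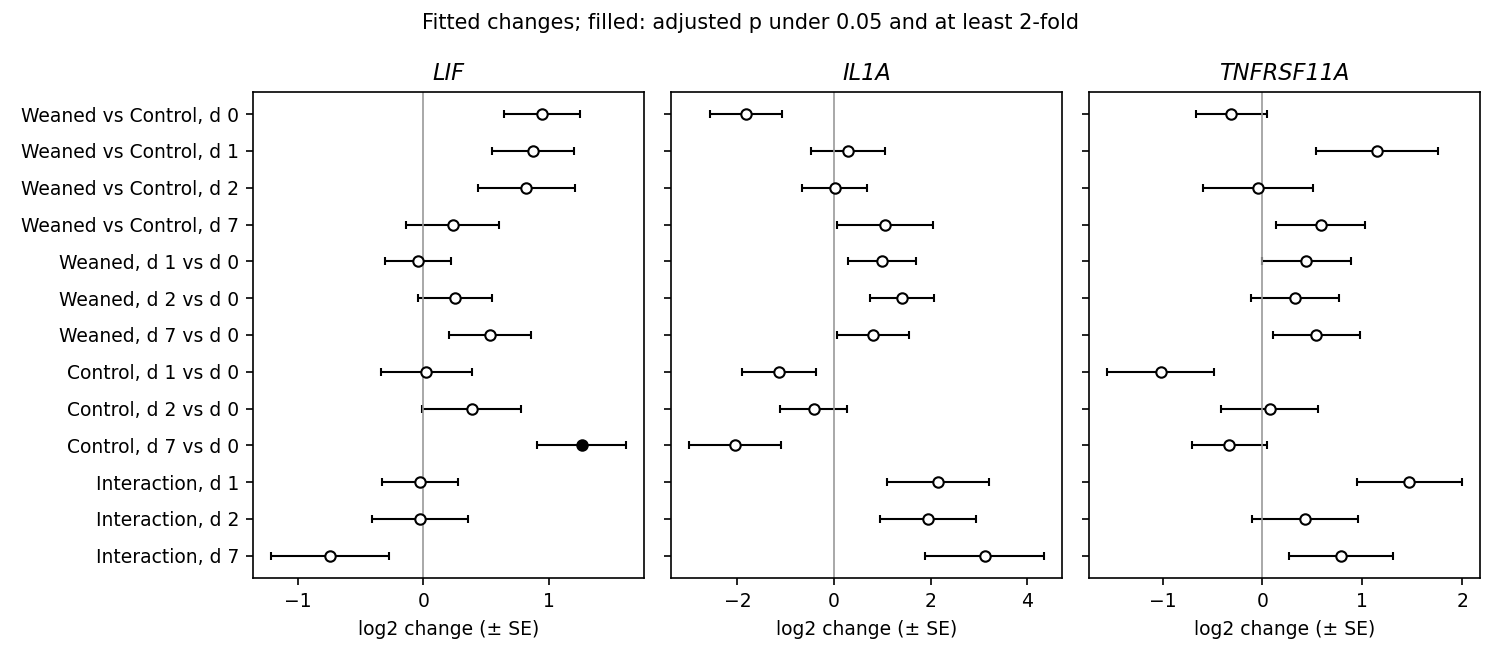
Fitted log2 changes (horizontal axes) of the 3 genes in 13 comparisons (vertical axis), with bars of 1 SE. The filled point is LIF in control calves on d 7 against d 0, at 1.26, the only value that reached both 2-fold and an adjusted p under 0.05; the interaction is the change in weaned calves less that in control calves.

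Across all comparisons the 3 genes were read against all genes tested with edgeR's quasi-likelihood test. On d 0, weaned against control calves, 0 of the 3 genes and 0% of 13926 were called at an adjusted p under 0.05 and at least 2-fold, and 2 (LIF and IL1A) and 6.23% had an unadjusted p under 0.05. On d 1, 0 of the 3 and 0% of 14078 were called, with 1 (LIF) and 3.01% at an unadjusted p under 0.05. On d 2, 0 of the 3 and 0% of 13949 were called, with 0 and 3.37% at an unadjusted p under 0.05. On d 7, 0 of the 3 and 0% of 13932 were called, with 0 and 25.5% at an unadjusted p under 0.05. For the same 4 days DESeq2 called 0, 0, 0 and 28 genes and edgeR's exact test with a common dispersion 68, 40, 75 and 865, none of them LIF, IL1A or TNFRSF11A. On d 7 DESeq2 gave no adjusted p for IL1A or TNFRSF11A, so that it could not have called either there. On d 7, 1137 genes were called without weaned calf 1809, again without the 3.

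In weaned calves against d 0, 0 of the 3 genes and 0% of 14038 were called on d 1, where 0 and 10.4% had an unadjusted p under 0.05. On d 2, 0 of the 3 and 0% of 13984 were called, with 1 (IL1A) and 2.11% at an unadjusted p under 0.05, and on d 7, 0 of the 3 and 0% of 14026, with 0 and 2.65%. DESeq2 called 1, 0 and 1 genes on these days and the exact test 64, 62 and 38, again without the 3 genes, and with calf as a block 2 genes were called on d 1. In control calves, 0 of the 3 and 0% of 13934 were called on d 1, with 0 and 0.768% at an unadjusted p under 0.05, and on d 2, 0 of the 3 and 0% of 13859, with 0 and 5.09%. DESeq2 called 0 genes on both days and the exact test 0 and 18. On d 7, 1 of the 3 genes (LIF) and 3.73% of 13829 were called, and 2 (LIF and IL1A) and 40.1% had an unadjusted p under 0.05. Of the 516 genes called there, 63 were higher and 453 lower, so that LIF went in the less frequent direction and the log2 change of IL1A had the sign of most. DESeq2 called 579 genes there and the exact test 743. No gene was called there in the fits without calf 1755, 1759 or 1763, 11 were called with flowcell as a block, and 790 and 1086 without calf 1802 and 1803.

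For the interactions, 0 of the 3 genes and 0% of 14786 were called on d 1, with 2 (IL1A and TNFRSF11A) and 22.3% at an unadjusted p under 0.05. On d 2, 0 of the 3 and 0% of 14733 were called, with 0 and 7.2% at an unadjusted p under 0.05. On d 7, 0 of the 3 and 0% of 14713 were called, with 1 (IL1A) and 35.8% at an unadjusted p under 0.05. DESeq2 called 4, 0 and 950 genes in these interactions, none of the 3, and 1 gene was called on d 1 without weaned calf 1769. For the d 7 interaction DESeq2 gave no adjusted p for IL1A or TNFRSF11A, so that it could have called only LIF of the 3. The exact permutation tests of the 3 genes, 39 in all, were not adjusted, share animals between comparisons and were not run for all genes.

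Of the pathways around the 3 genes, few members carried a symbol that could be matched to the table. Besides the 3 genes themselves, 2 of 32 genes of interleukin-1 signalling were identified (IL18 and MAP3K7), 2 of 25 of the LIF and interleukin-6 family (LIFR and JAK2), 1 of 26 of the RANK pathway (FOS) and 3 of 18 NF-kappaB target genes (IL8, CCL2 and CCL4). Of 12 ligands, receptors and inhibitors that act directly with the 3 genes, only the LIF receptor LIFR was identified, and it was at 1 to 15 counts per group. Most symbols belong to genes that the study listed as changed on these same counts, so the lists are not independent evidence of a direction.

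In control calves on d 7 against d 0, 7 of these 8 genes were tested, 1 was called higher and 1 lower, beside 3.73% of all genes tested (63 higher and 453 lower). Their median log2 change was -0.84, beside 0.05 over all genes. MAP3K7, which encodes the kinase TAK1 downstream of the interleukin-1 receptor and RANK, went from 49.3 ± 19.0 to 23.3 ± 8.62 CPM (SD, n = 6), a log2 change of -1.03 (SE 0.26, adjusted p = 0.0249). FOS, a transcription factor induced downstream of RANK and many other receptors, went from 112 ± 54.2 to 244 ± 204 CPM (SD, n = 6), a log2 change of 1.12 (SE 0.36, adjusted p = 0.0455). JAK2 had a log2 change of -0.92 (SE 0.27, adjusted p = 0.0330), which is under 2-fold, and LIFR had 9 counts on d 0 and 1 on d 7. No list gene was called with flowcell as a block, where the log2 values were -1.06 (MAP3K7) and 0.68 (FOS), nor without calf 1755 (-0.74 and 1.12), 1759 (-0.99 and 0.57) or 1763 (-1.05 and 1.06). FOS was also not called without calf 1802 (1.16), with calf as a block (0.96) or by DESeq2 (1.14, adjusted p = 0.0520), and JAK2 was called without calf 1789 (-1.0) or 1802 (-1.14). LIF was thus called higher in the control calves, while JAK2, a kinase downstream of its receptor, had a negative log2 change.

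No list gene was called in the other 12 comparisons, and the 2 with the smallest unadjusted p are given for each. Between weaned and control calves on d 0 these were JAK2 (log2 -0.54, SE 0.29) and MAP3K7 (-0.48, SE 0.28), with a list median of -0.48 beside -0.01 over all genes. On d 1 they were the chemokines IL8 (1.78, SE 0.87) and CCL2 (1.17, SE 1.17), with a median of 0.25, and on d 2 IL8 (1.90, SE 1.02) and MAP3K7 (0.46, SE 0.33), with a median of 0.46. On d 7 they were MAP3K7 (1.06, SE 0.37, adjusted p = 0.158) and the interleukin-1 family cytokine IL18 (1.07, SE 0.41, adjusted p = 0.159), with a median of 0.69. CCL2 on d 1 was 0.23 without weaned calf 1769, and IL8 on d 2 was 0.30 without weaned calf 1758, while IL8 on d 1 was 1.16 to 2.50 with 1 calf left out. IL8 on d 2 was -0.52 with flowcell as a block, MAP3K7 was -0.05 on d 2 without weaned calf 1758, and on d 7 it was called without weaned calf 1809 (1.22, adjusted p = 0.0280). On d 1, IL8, which recruits neutrophils, was read 66 times in weaned and 16 times in control calves, and CCL2, which recruits monocytes, 17 and 6 times, so that both chemokines rested on few reads. The medians over all genes on d 1, 2 and 7 were 0.00, 0.03 and 0.03.

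From d 0 in weaned calves, the list genes with the smallest unadjusted p were IL8 (log2 1.94, SE 0.72) and JAK2 (0.62, SE 0.26) on d 1, FOS (0.68, SE 0.27) and JAK2 (0.80, SE 0.35) on d 2, and IL8 (1.24, SE 0.53) and FOS (0.53, SE 0.23) on d 7. The list medians were 0.62, 0.68 and 0.50, beside 0.02, 0.03 and 0.04 over all genes, and the adjusted p of these 6 values was 0.423 on d 1, 0.944 on d 2 and 0.920 on d 7. In control calves they were IL18 (-0.44, SE 0.33) and FOS (0.32, SE 0.35) on d 1 and MAP3K7 (-0.45, SE 0.22) and IL8 (-1.13, SE 0.71) on d 2, with medians of -0.10 and -0.23. In the interactions they were JAK2 (0.87, SE 0.34) and IL8 (2.29, SE 1.00) on d 1, JAK2 (0.86, SE 0.41) and MAP3K7 (0.78, SE 0.40) on d 2, and JAK2 (1.16, SE 0.35, adjusted p = 0.0810) and MAP3K7 (1.36, SE 0.43, adjusted p = 0.0812) on d 7. The interaction medians were 0.84, 0.82 and 1.13, beside 0.04, 0.05 and 0.03 over all genes.

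The labelled cell type could not be checked against defining markers, since 0 of 4 general leukocyte, 0 of 8 T cell and 0 of 7 B cell markers carried a matched symbol. Other blood cell markers were partly identified, and they are given for the control calves on d 0 and d 7, where LIF was called. The NK cell receptor gene KLRD1, 1 of 5 NK cell markers, had a lowest, median and highest value of 2.25, 5.96 and 15.6 CPM on d 0 and 1.05, 2.07 and 3 CPM on d 7, and was called lower at a log2 value of -1.73 (SE 0.42, adjusted p = 0.0226). The summed level of 3 of 5 erythroid markers, of which HBB was the most abundant, was 4.71, 8.38 and 13 CPM on d 0 and 5.97, 11.9 and 48.6 CPM on d 7. The sum of 2 of 10 neutrophil markers, mostly ALPL, was 41.8, 71.4 and 203 CPM on d 0 and 53.1, 116 and 160 CPM on d 7, with PGLYRP1, a granule protein gene, at 7.68 ± 8.91 and 16.4 ± 8.13 CPM (SD, n = 6). The sum of 2 of 6 dendritic cell markers, mostly FCER1A, was 13.2, 23.4 and 35.8 CPM on d 0 and 15.4, 17.7 and 24 CPM on d 7. Only KLRD1 passed the call among these, though not without calf 1755 (-1.64), 1759 (-1.40) or 1763 (-1.71) or with flowcell as a block (-1.43), and none of the markers in the 4 lists was at 0 in every library of either group. Their part in the changes of LIF and IL1A was not tested.

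In control calves on d 0 and d 7, the mean was 4.24 ± 2.73 and 3.12 ± 1.56 CPM (SD, n = 6) for CLEC7A, 1 of 8 monocyte markers, and 20.2 ± 17.7 and 15.5 ± 13.3 CPM (SD, n = 6) for 2 of 6 eosinophil and basophil markers, mostly IL5RA. It was 2.78 ± 1.83 and 3.12 ± 3.38 CPM (SD, n = 6) for PPBP, 1 of 7 platelet markers, and 7.12 ± 2.14 and 5.31 ± 2.28 CPM (SD, n = 6) for KDR, 1 of 4 endothelial markers. All 5 fibroblast markers were identified, led by COL1A1, and their sum had a lowest, median and highest value of 2.65, 146 and 330 CPM in weaned calves on d 0 and 0.494, 8.14 and 51.3 CPM on d 7. In control calves the sum was 4.65, 28.5 and 134 CPM on d 0 and 11.1, 29.7 and 241 CPM on d 7, with LUM at 0 in both groups. In weaned calves COL1A1 had a log2 change of -3.32 (SE 0.97, adjusted p = 0.944) on d 2 and -3.08 (SE 1.05, adjusted p = 0.92) on d 7, neither of which passed the call. Between the treatments on d 0, where LIF and IL1A had an unadjusted p under 0.05, the erythroid markers ALAS2 and HBB had log2 differences of 1.29 (SE 0.52) and 0.56 (SE 0.26), IL5RA had -1.18 (SE 0.52) and KDR -0.73 (SE 0.29), all with an adjusted p of 0.624. Collagen transcripts in leukocyte RNA varied widely within a group and between days, and their part in the results for the 3 genes was not tested.

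Over the 48 libraries, which share calves, days and depth, the 3 genes did not follow one another. Pearson's r of log2(CPM + 1) was -0.15 between LIF and IL1A, 0.37 between LIF and TNFRSF11A and -0.14 between IL1A and TNFRSF11A. After subtraction of each calf's mean these were 0.03, 0.04 and 0.09. The r of 0.37 between the cytokine and the receptor thus came from levels that differed between calves. This includes any difference between the treatments, since no calf was in both.

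The genes whose pattern was most like each of the 3 were sought among 11071 genes with at least 480 counts (11070 for LIF, which is itself one of them). For LIF they had no symbol, namely ENSBTAG00000007490 (r = 0.778, or 0.740 after subtraction of calf means), ENSBTAG00000019707 (0.753, or 0.778) and ENSBTAG00000003033 (0.729, or 0.660). Among the 340 with a symbol they were FCER1A (0.549, or 0.270), a chain of the IgE receptor of basophils and dendritic cells, the transporter gene SLC29A4 (0.451, or 0.251) and the myosin gene MYH10 (0.395, or 0.141). After subtraction of calf means, the named genes most like LIF were FOS (0.536), PGLYRP1 (0.505) and FOSB (0.392). For IL1A the 3 highest had r of 0.725, 0.725 and 0.718 and no symbol, and the named genes were the tyrosine kinase gene TEC (0.682, or 0.814), CD274 (0.624, or 0.767), which encodes the checkpoint ligand PD-L1, and PBEF1 (0.612, or 0.680). For TNFRSF11A they were KLRD1 (0.585, or 0.590), ENSBTAG00000017666 (0.565, or 0.618) and ALG13 (0.562, or 0.583). All of these are correlations over 48 libraries, and for IL1A, with a median of 2 counts, they rest on few reads.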

How the data were processed

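The authors aligned 36 bp single-end reads to Btau4.0 with Bowtie 0.12.7 allowing no mismatch, dropped reads that aligned more than once and duplicates at 1 position, and deposited the count of reads per Ensembl gene from HTSeq 0.4.6p2, not normalised. Whether strand was used is not stated, so that reads of overlapping antisense genes cannot be told apart. Genes with 10 or more counts over the libraries of a comparison were tested by the quasi-likelihood F-test of edgeR 4.0.16 (R 4.3.3) with TMM factors, p being adjusted by Benjamini-Hochberg over all genes tested. Called genes had at least a 2-fold change and an adjusted p under 0.05. Groups were compared in 12 libraries without a block, so that the main fits of changes from d 0 did not use the pairing of days within calves. The exact permutation of signs did use it. Interactions were fitted in 24 libraries with calf as a block. Exact two-sided permutation tests used log2(CPM + 1). Intervals of count ratios are exact binomial ones. Python 3.11.15 with scipy 1.17.1 and matplotlib 3.10.9 was used for the rest.

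The pairing over days comes from the calf numbers in the labels, the same animal being sampled on each day. As a check, deviations from group means on d 0 correlated with those of the same calf at a mean r of 0.495, 0.338 and 0.219 on d 1, 2 and 7 in control calves and 0.470, 0.263 and 0.237 in weaned calves, the calf's own d 0 library being the best match for 5, 3 and 3 of 6 control and 5, 3 and 4 of 6 weaned calves. Control calf 1763 on d 1 had r = -0.510 with its own d 0 and 0.685 with that of calf 1789. Weaned calf 1758 had r of -0.349 on d 2 and -0.443 on d 7, against 0.613 and 0.609 with calf 1762. On d 7, control calf 1755 had -0.117, against 0.293 with calf 1802. Control calf 1803 had 0.0301 on that day, against 0.469 with calf 1755. The chi-square per degree of freedom, which is near 1 for repeats that differ by counting alone, was 2.79 to 57.9 in the 120 pairs of libraries of a group, and none was treated as a duplicate. Flowcells were taken from the study's list of lanes.

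Alternatives were RLE size factors, DESeq2 1.42.0, no filter, edgeR's exact test, flowcell or calf as a block, a pseudocount of 0.5, leaving out each calf, and leaving out or exchanging calves 1758 and 1770 on d 7. The procedure was tested on simulated data. Of 2-fold changes, 36.5% (weaned against control calves on d 1), 41.5% (control calves on d 7) and 28.5% (interaction on d 7) were recovered. Of 4-fold changes, 90%, 96% and 85.5% were recovered in the same order. The changed genes were drawn from those above a minimum mean count that IL1A did not reach, so that these shares do not cover IL1A. They were not computed separately for counts as low as those of TNFRSF11A. The members and lists were chosen with earlier results of these data known, and the study itself listed the 3 genes on these counts. Named were the 3 genes in every comparison, the genes that act directly with them, other list genes that were called or else the 2 with the smallest unadjusted p, and the 3 genes most correlated with each. Symbols for 643 genes came from the study's human orthologs, and positions and sequences were not used here. Levels of the 3 genes were not compared with one another, since lengths were not used, and marker sums follow the genes with most reads.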

Additional observations from a re-analysis of the deposited data

Results flagged for a closer look

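In 5 of 24 groups of 6 libraries, 1 library lay far from the others. Chance gives about 1 in 20 groups if the values are normally distributed and the groups are independent. Low counts need not be normally distributed and these groups share their calves, so that the rate may not hold here. LIF was 33.5 CPM in the d 7 library labelled weaned calf 1758, against a group median of 15.5 CPM. IL1A was 2.58 CPM in weaned calf 1762 on d 2 and 1.01 CPM in control calf 1763 on d 7, where 4 of the other libraries had 0 counts, so that few counts suffice to set a library apart. TNFRSF11A was 7.20 CPM on d 2 and 3.08 CPM on d 7 in control calf 1802, the highest control calf for this receptor on each day.

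In 3 of 9 interactions, the change from d 0 differed between weaned and control calves at an unadjusted p under 0.05 in edgeR. These were IL1A on d 1 (p = 0.0387, exact permutation p = 0.0563), TNFRSF11A on d 1 (p = 0.0101, exact permutation p = 0.00433) and IL1A on d 7 (p = 0.0101, exact permutation p = 0.0108), and none passed the adjustment over all genes. The shares of all genes at this threshold were 22.3% on d 1 and 35.8% on d 7. Both genes had been listed by the study on these same counts, so that these p values are not an independent test.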

How the results depend on the processing

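For the 39 log2 changes of the 3 genes, 219 values were computed under other settings, of which 210 kept their direction and their side of the threshold. These 210 include 6 DESeq2 values that had no adjusted p and were counted as not called. In control calves on d 7, LIF was no longer called with flowcell as a block (log2 1.21, adjusted p = 0.102), IL1A was called by the exact test (-2.01, adjusted p = 0.00972), and with calf as a block, which uses the pairing, IL1A was also called (-2.32). The number of the 3 genes called there was 0 with flowcell as a block, 2 by the exact test and 2 with the calf block. Directions turned for IL1A between treatments on d 2 (-0.041 by the exact test, -0.16 with flowcell as a block), TNFRSF11A between treatments on d 2 (0.53 with flowcell as a block) and TNFRSF11A in control calves on d 2 (-0.074 with the calf block). Without calves 1758 and 1770 they turned for IL1A in weaned calves on d 7 (-0.0054, exact permutation p = 0.63) and for LIF between treatments on d 7 (-0.16, exact permutation p = 0.857). A pseudocount of 0.5 turned the LIF interaction on d 1 (exact permutation p = 0.998) and d 2 (0.991), and 0 of 39 exact tests changed side. The cause was not tested for these. The pseudocount for interactions was chosen after seeing the data, as were the exchange or omission of calves 1758 and 1770 in permutation tests and gene counts and their exchange in interactions. The calf block changed no other call of the 3 genes. DESeq2 gave no adjusted p for 6 of 39 values, IL1A and TNFRSF11A on d 7 in control calves, between treatments and in the interaction.

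Of 360 values that left out 1 calf, 330 were alike, 4 lost the call and 26 turned. LIF in control calves on d 7 ranged from 1.01 to 1.5 and was not called without calf 1755 (1.19), 1759 (1.01), 1763 (1.32) or 1789 (1.10), and 0 to 1 of the 3 genes was called. Ranges that crossed 0 were -0.077 to 0.39 (LIF) between treatments on d 7, where calf 1758 gave -0.077, -0.13 to 0.019 (LIF) in weaned calves on d 1, -0.13 to 0.17 (LIF) in control calves on d 1, -0.23 to 0.12 and -0.29 to 0.24 (LIF) for the d 1 and d 2 interactions, -0.42 to 0.75 (IL1A) and -0.21 to 0.64 (TNFRSF11A) between treatments on d 2, and -1.28 to 0.11 (IL1A) and -0.42 to 0.24 (TNFRSF11A) in control calves on d 2.

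Of 28 values of other named genes, 1 turned with flowcell as a block (IL8 between treatments on d 2, -0.52) and 1 without a calf (MAP3K7 between treatments on d 2, -0.049 to 0.61), while 5 of 158 values lost and 8 gained the call under other settings and 10 of 252 lost and 3 gained it without 1 calf.

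Genes called among all tested moved more. Between treatments the exact test called 68, 40, 75 and 865 on d 0, 1, 2 and 7 and DESeq2 28 on d 7, against 0 in edgeR's quasi-likelihood test. In weaned calves the exact test called 64, 62 and 38 on d 1, 2 and 7, DESeq2 1 on d 1 and 1 on d 7, and the calf block 2 on d 1. In control calves the exact test called 18 on d 2, and on d 7 there were 11 with flowcell as a block, against 516 without it. The interactions had 4 (d 1) and 950 (d 7) in DESeq2 and 625 (d 7) without a filter. Leaving out 1 calf gave 0 to 1086 in control calves on d 7 (0 without 1755, 1759 or 1763, 790 without 1802, 1086 without 1803), 0 to 1137 between treatments on d 7 (1137 without 1809) and 0 to 1 in the d 1 interaction (1 without 1769).

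IL1A rests on a median of 2 counts per library, so that most of its differences lie within counting error and spread.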
